A study of Mus musculus with 35 samples.

Results

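The genes of oxidative phosphorylation were followed through whole mouse lungs with 99 genes named for respiratory complexes I to IV and the ATP synthase, complex V. They include Atp5if1, the inhibitor of ATP hydrolysis by complex V. They were chosen by symbol and level: 120 gene symbols carry the subunit names (mt-Nd, mt-Co, mt-Cyt, mt-At, Nduf, Sdh, Uqcr, Cox4 to Cox8 and Atp5), 14 of these are pseudogenes by symbol, and 7 more averaged less than 1 CPM (counts scaled to library size, as the usual unit CPM) over the 35 libraries. The remaining 99 of 57186 genes in the table comprise 13 genes of the mitochondrial genome and 86 nuclear genes. By complex, as the symbols place them, 7 mitochondrial and 39 nuclear genes belong to complex I and 4 nuclear genes to complex II. Complex III has 1 and 8, complex IV 3 and 17, and complex V 2 and 18. The value that chose them was the mean CPM, which was 1.03 for Cox6c2 and 1.21 for Ndufb4b just inside the limit and 0.83 for Ndufs6b and 0.56 for Ndufb4c just outside it. All 99 passed the filter on low counts and entered the tests.

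The libraries are of RNA from whole lungs of mice described as 14 days old. The control genotype (C) is RORaf/f, with a floxed Rora gene and no Cre named. The other genotype (KO), RORaf/fIl7riCre, carries the same floxed gene, and Cre from the Il7r locus can act on it in cells that express Il7r or descend from such cells, so that the loss of Rora and the presence of Cre cannot be told apart. Lungs were untreated or taken after naphthalene, a compound that club cells of the airway convert to a toxic product, and each state has day labels 2, 5 and 7. Each of the 12 groups had 3 libraries, except KO lungs 7 days after naphthalene, which had 2. No separate age is stated for the untreated lungs of each day, and nothing says that libraries of a group came from separate mice, so p-values measure the spread between these samples, which may be technical.

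Library totals ran from 10.7 M to 21.06 M counts (M for mega) with a median of 16.16 M. Rora, the targeted gene, averaged 46.7 CPM (SD 14.5, n = 3) in untreated KO lungs of day 2 and 36.3 CPM (SD 6.0, n = 3) in the controls, and its genotype difference over the 6 conditions was 0.14 ± 0.09 on the log2 scale (standard error; edgeR adjusted p = 0.398), so whole-lung RNA did not show the deletion and KO is used here as the label only. The club cell transcript Scgb1a1 averaged 6849 ± 718 CPM in untreated controls of day 2 and 563 ± 182 CPM after naphthalene (SD, n = 3 each). The lung epithelial transcripts Sftpc and Ager were present in every library, at no less than 4847 and 1217 CPM. The library names carry a letter whose meaning is not stated: it differs between treated and untreated lungs at days 2 and 5 and is the same, p, for all libraries of day 7. At days 2 and 5 the naphthalene effect and the letter cannot be told apart, nor can day 7 and the letter in a comparison with day 2, whereas the treated and untreated lungs of day 7 share it.

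Oxidative phosphorylation passes electrons from NADH and succinate along complexes I to IV to oxygen and uses the resulting proton gradient to make ATP in complex V. The mitochondrial genome encodes the proton-pumping core of complex I, cytochrome b, the catalytic core of complex IV and part of the ATP synthase membrane sector, all cut from long transcripts of both strands. The nuclear genome encodes all of complex II and every other subunit, so that assembly draws on both genomes. In the lung, mitochondria are abundant in ciliated, club and alveolar type 2 cells. A bulk library does not tell fewer cells of a type from less RNA per cell.

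Several mitochondrial genes have near-perfect copies in nuclear DNA, and the sequences show which counts those copies can share. In GENCODE M21 on GRCm38, the build of the reference used here and not that of the counts, every 50-base window of mt-Co2 has an exact match among the annotated nuclear transcripts, as do 99.9% of windows of mt-Co3, 99.5% of mt-Atp6, 98.8% of mt-Nd4l and 98% of mt-Nd3. By the same search, on any nuclear chromosome, the share was 62.2% for mt-Nd4, 51.1% for mt-Co1, 8.19% for mt-Nd2 and 7.61% for mt-Nd5, and no exact window was found for mt-Nd1, mt-Cytb, mt-Nd6 or mt-Atp8. The first bases of mt-Nd3 are given with those of its copy Gm28438, at chr1:24612775-24613119 on the minus strand. A stretch of mt-Co1 is given with its copy Gm29216, at chr1:24615706-24616197 on the minus strand. Gm29216 aligned to 483 of the 1545 bases of mt-Co1. Within the aligned bases each pair differs only at the base in capitals, T3C for mt-Nd3 and A1066T for mt-Co1. Positions are counted from 1 at the 5′ end of each mitochondrial gene.
mt-Nd3: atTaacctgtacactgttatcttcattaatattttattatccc
Gm28438: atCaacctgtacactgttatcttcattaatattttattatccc
mt-Co1: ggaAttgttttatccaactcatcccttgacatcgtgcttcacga
Gm29216: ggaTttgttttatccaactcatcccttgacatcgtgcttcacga

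The copies themselves held counts. Gm28661, the copy of mt-Co2, averaged 49.5 CPM beside 80.4 CPM for mt-Co2, Gm28437 averaged 55.6 CPM beside 82.7 CPM for mt-Co3, and Gm10925 averaged 54.9 CPM beside 52.6 CPM for mt-Atp6. The values of mt-Co2, mt-Co3, mt-Atp6, mt-Nd3 and mt-Nd4l are therefore uncertain, since reads from either locus cannot be assigned by sequence, and mt-Nd4 and mt-Co1 are uncertain in part. mt-Atp8 overlaps mt-Atp6, mt-Nd4l overlaps mt-Nd4, and mt-Nd6 lies on the opposite strand from its neighbours, with the use of strand in counting not given in the sources used here.

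Per kilobase of transcript, the mitochondrial genes spanned a wide range. The mean level was highest for mt-Co1, a catalytic subunit of cytochrome c oxidase, at 2718 CPM per kilobase, followed by mt-Cytb of complex III at 2287 and mt-Nd1 at 1789. It was 300 CPM per kilobase for mt-Nd5, 118 for mt-Co2, 49.6 for mt-Nd3 and 6.3 for mt-Nd4l. The 5 genes with exact nuclear copies over nearly all of their windows, mt-Co2, mt-Co3, mt-Atp6, mt-Nd3 and mt-Nd4l, had low values. So did mt-Atp8, at 37.8, for which no exact window was found. mt-Co1, the highest, has exact copies for 51.1% of its windows. The part of the copies in these levels was not tested. Among nuclear subunits with the highest counts in each complex, Cox4i1 of complex IV reached 330 CPM per kilobase, Atp5f1b, the catalytic beta subunit of the ATP synthase, 169, Uqcrh of complex III 144, Ndufa4 96.1 and Sdhc, a membrane anchor of succinate dehydrogenase, 45.9.

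The 13 mitochondrial genes together took from 5989 CPM in replicate 1 of the untreated controls of day 5 to 22974 CPM in replicate 1 of the treated KO lungs of day 2. The 86 nuclear genes together varied less, from 4681 CPM in replicate 1 of the untreated KO lungs of day 2 to 9230 CPM in replicate 3 of the untreated controls of day 7. The summed mitochondrial level was 9330 ± 2787 CPM (SD, n = 3) in untreated controls of day 2 and 15048 ± 460 CPM (n = 3) after naphthalene. In KO lungs of day 2 it was 12326 ± 1179 CPM untreated and 17840 ± 4550 CPM treated. The summed nuclear level was between 5202 and 6567 CPM as a group mean at days 2 and 5, and between 7511 and 8536 CPM at day 7, treated or not. As group means, the mitochondrial sum thus stood highest in the treated lungs of day 2, and the nuclear sum in all 4 groups of day 7. Single libraries overlapped in both. Replicate 2 of the treated KO lungs had a mitochondrial sum of 16720 CPM at day 7 and 14310 CPM at day 2. Replicate 3 of the treated controls of day 7 had a nuclear sum of 6864 CPM, below 7133 CPM in replicate 3 of the untreated KO lungs of day 2.

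**Figure D1:**
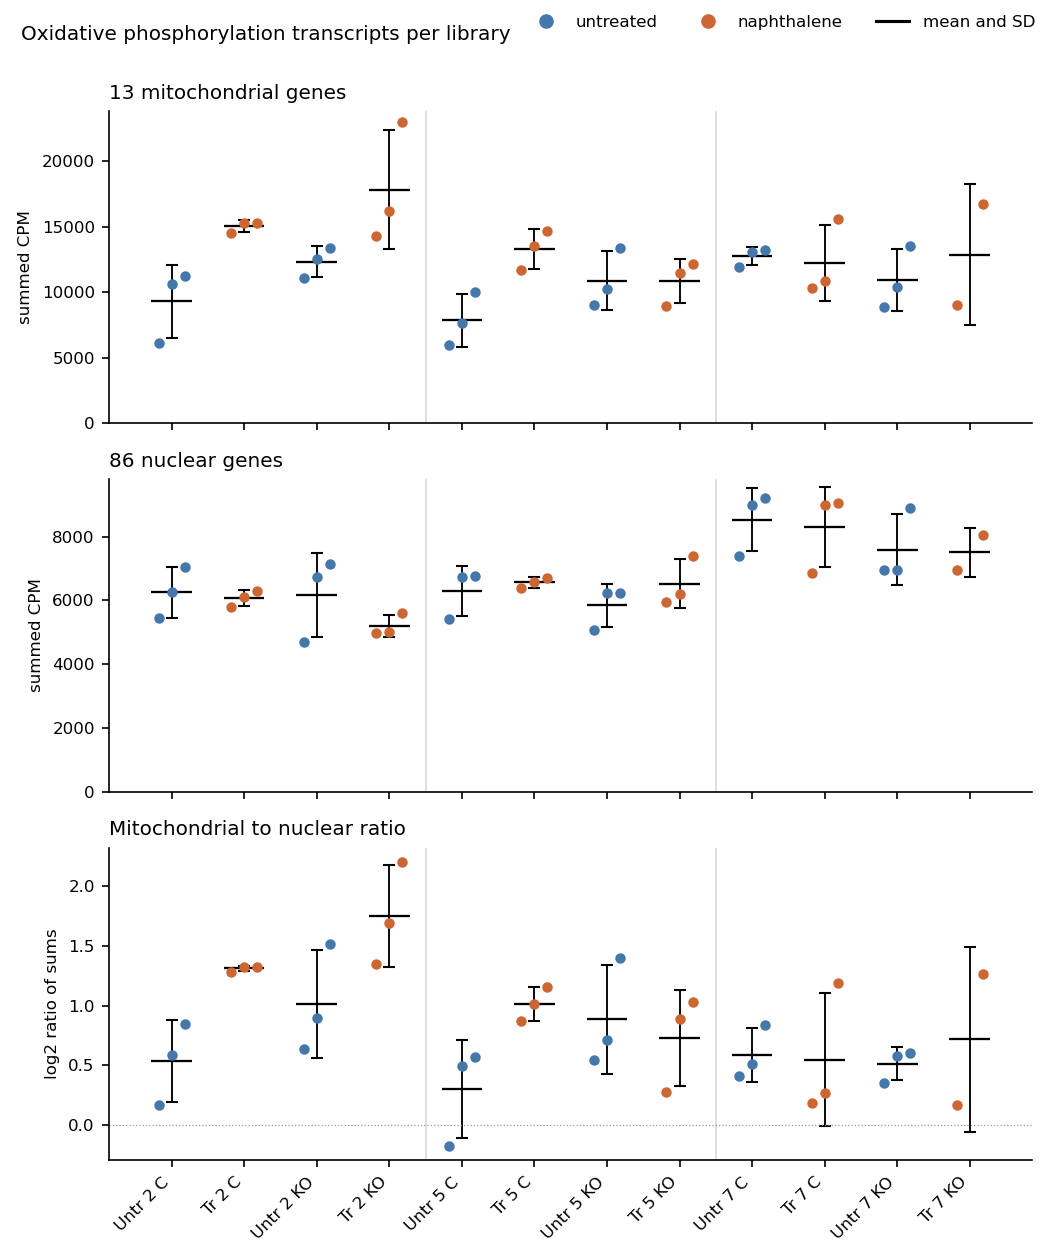
Summed CPM of the 13 mitochondrial and 86 nuclear genes and the log2 of their ratio, per library, in the 12 groups ordered by day and genotype (Untr, untreated; Tr, naphthalene). Points are libraries, bars the mean and SD. Treated control lungs of day 2 lie between 1.28 and 1.33 on the ratio scale and the untreated ones between 0.17 and 0.85, while all 4 groups of day 7 overlap.

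The log2 ratio of the mitochondrial to the nuclear sum set the genomes side by side. In control lungs of day 2 it was 0.17, 0.59 and 0.85 in the untreated libraries and 1.28, 1.32 and 1.33 in the treated ones, with no overlap. In KO lungs of day 2 it ran from 0.63 to 1.52 untreated and from 1.35 to 2.20 treated, with overlap. Control lungs of day 5 also did not overlap, with −0.17 to 0.57 untreated and 0.87 to 1.16 treated. KO lungs of day 5 did overlap, with means of 0.88 ± 0.46 untreated and 0.73 ± 0.40 treated (SD, n = 3 each). At day 7 the 4 group means lay between 0.51 and 0.72. As differences of group means, naphthalene moved the ratio by 0.78 in control and 0.74 in KO lungs at day 2, by 0.71 and −0.16 at day 5, and by −0.04 and 0.20 at day 7. The last 3 differences were smaller than the SD between replicates, which was 0.43, 0.42 and 0.55, and left-out libraries turned their sign. For these, the value ran from −0.33 to 0.10 without 1 library at a time in KO lungs of day 5, the highest without replicate 1 of the untreated group. It ran from −0.36 to 0.14 in controls of day 7, the lowest without replicate 3 of the treated group, and from −0.34 to 0.75 in KO lungs of day 7, where the treated group then held a single library. Between untreated days 2 and 7 the mean ratio went from 0.77 to 0.55, a difference of −0.22 that was also smaller than the SD of 0.31 and ran from −0.32 to −0.10 without 1 library at a time. No p is given for sums over chosen genes. The sums rest on the genes with the highest counts. In controls of day 2, mt-Co1 alone held 1808 to 4280 CPM of untreated sums of 6134 to 11254 CPM. It held 6579 to 6756 CPM of treated sums of 14517 to 15317 CPM. In KO lungs it held 2778 to 5182 of 11061 to 13395 CPM untreated and 5874 to 10639 of 14310 to 22974 CPM treated. By the mean log2 CPM over members, the control difference at day 2 was smaller, as given below.

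For single genes, a change was called at an adjusted p below 0.05 in edgeR's quasi-likelihood test over 20606 genes. Within each genotype, naphthalene called none of the 99 members at any day, against 3.76% of all genes tested in control and 2.74% in KO lungs at day 2, 2.39% and 1.32% at day 5, and 0.0388% and 0.0728% at day 7. Split by direction, that background at day 2 was 2.57% higher and 1.18% lower in controls and 1.99% and 0.747% in KO lungs. At day 5 it was 1.1% higher and 1.29% lower in controls and 1.14% and 0.18% in KO lungs, and at day 7 it was 0.0291% and 0.00971% in controls and 0.0631% and 0.00971% in KO lungs. At an unadjusted p below 0.05, the members numbered 4 in control and 29 in KO lungs at day 2, 20 and 5 at day 5, and 0 and 1 at day 7. For counts at an unadjusted p, here and below, the share of all genes at that threshold is not given. Such counts therefore cannot be read as particular to the members. DESeq2 called 1 mitochondrial member in each genotype at day 2 and 2 nuclear members in KO lungs, 4 mitochondrial and 2 nuclear members in controls at day 5, and none in the other cases. The counts of 0 also depended on single libraries. For refits with libraries left out, here and below, the share of all genes called is not given. Their counts therefore cannot be read as particular to the members. Without replicate 1 of the untreated KO lungs of day 2, 20 nuclear members were called in KO lungs at day 2, and without replicate 2 of the treated ones 1 was. Without the libraries of letters n, o and i, 2 mitochondrial and 26 nuclear members were called there. Without replicate 3 of the untreated controls of day 5, 5 mitochondrial and 12 nuclear members were called in controls at day 5.

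Averaged over both genotypes, naphthalene at day 2 called 2 mitochondrial members, both higher, and 6 nuclear members, all lower, against a background of 9.9% of genes tested (5.6% higher, 4.3% lower). The share of nuclear members called lower, 6 of 86, is near that background. The median log2 change was 0.23 over the 13 mitochondrial and −0.22 over the 86 nuclear members, against −0.04 over all genes tested. Changes were above 0 for 9 of 13 mitochondrial and below 0 for 76 of 86 nuclear members. The share of all genes on either side of 0 is not given, so these counts cannot be read as particular to the members. All tested genes under 1000 bases also had a median of −0.22, and the part of length was not tested.

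The mitochondrial genes called at day 2 were mt-Co1 and mt-Nd5. In control lungs mt-Co1 stood at 4280, 3727 and 1808 CPM untreated and at 6756, 6729 and 6579 CPM treated. In KO lungs mt-Co1 stood at 5182, 4090 and 2778 CPM untreated and at 10639, 5874 and 7063 CPM treated. The treated libraries were above every untreated one of their genotype, and the log2 change was 1.00 ± 0.23 (adjusted p = 0.00351). mt-Nd5, a proton-pumping subunit of complex I, stood at 596, 626 and 235 CPM in untreated and 758, 762 and 899 CPM in treated controls. In KO lungs mt-Nd5 stood at 650, 556 and 410 CPM untreated and at 1405, 919 and 1111 CPM treated, again without overlap, and its change was 0.91 ± 0.26 (adjusted p = 0.0187).

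The other mitochondrial genes did not pass. mt-Cytb had a log2 change of 0.48 ± 0.19 (adjusted p = 0.117), mt-Nd1 0.30 ± 0.13, mt-Nd2 0.23 ± 0.16, mt-Nd6 0.22 ± 0.20 and mt-Nd4 0.10 ± 0.17. The genes with full nuclear copies gave −0.35 for mt-Atp6, −0.32 for mt-Co2, −0.23 for mt-Co3 and −0.21 for mt-Nd3, with mt-Nd4l at 0.80 ± 0.32 and mt-Atp8 at 0.36 ± 0.49. The genes of 1 genome therefore had unequal values within the same libraries. The ratio of mt-Co1 to mt-Nd1 CPM was 2.35 ± 0.68 in untreated and 3.69 ± 0.08 in treated controls (SD, n = 3 each), and 2.33 ± 0.85 and 3.88 ± 0.58 in KO lungs. The ratio of mt-Nd5 to mt-Nd1 was 0.346 ± 0.121 and 0.444 ± 0.042 in controls, which overlapped, and 0.311 ± 0.089 and 0.571 ± 0.035 in KO lungs, which did not. The mitochondrial ribosomal RNAs, neither of which was called, had a median log2 change of 0.50.

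**Figure D2:**
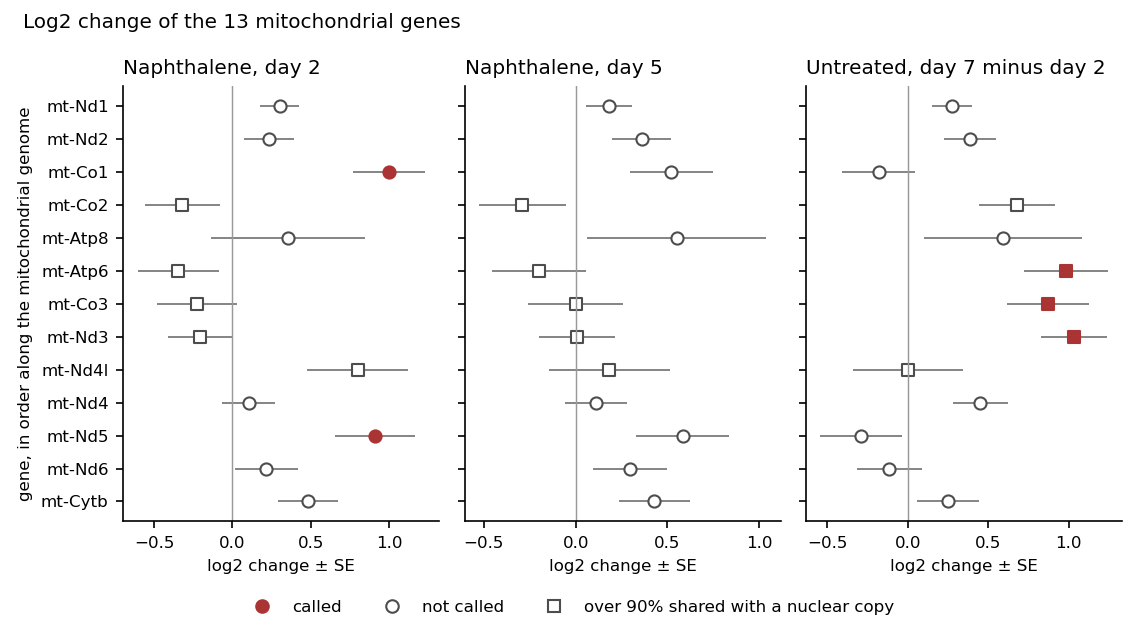
Log2 change with its standard error for the 13 mitochondrial genes, in their order along the mitochondrial genome, after naphthalene at days 2 and 5 (mean of both genotypes) and in untreated lungs between days 2 and 7. Filled symbols passed the test and squares mark genes with an exact nuclear copy over 90% of windows. mt-Co1 and mt-Nd5 are filled at day 2, and mt-Nd3, mt-Atp6 and mt-Co3, all squares, between days 2 and 7.

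The 6 nuclear members called lower at day 2, a share near the background, were Ndufa1, Ndufa5, Uqcrb, Atp5mj, Atp5mk and Atp5if1. Ndufa1, a membrane-arm subunit of complex I, stood at 31.8, 32.2 and 32.5 CPM in untreated and 23.5, 24.9 and 24.7 CPM in treated controls. In KO lungs Ndufa1 stood at 19.1, 35.3 and 40.9 CPM untreated and at 17.4, 23.5 and 15.1 CPM treated, with overlap. Its log2 change was −0.58 ± 0.16 (adjusted p = 0.0125). Ndufa5 of complex I changed by −0.54 ± 0.16, Uqcrb of complex III by −0.54 ± 0.16, and the ATP synthase membrane subunits Atp5mj and Atp5mk by −0.55 ± 0.16 and −0.41 ± 0.13. Atp5if1, the inhibitor of ATP hydrolysis by complex V, changed by −0.55 ± 0.18 (adjusted p = 0.0403). The 7 nuclear core subunits of complex I, which carry its redox centres, had changes from −0.20 to −0.04, and succinate dehydrogenase had 0.12 ± 0.11 for Sdha, −0.04 ± 0.14 for Sdhb, −0.21 ± 0.16 for Sdhc and −0.16 ± 0.10 for Sdhd, none of them called. A difference between these subunits and the 6 called was not tested.

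The count of 6 changed with single libraries. Without replicate 1 of the untreated KO lungs, which had the fewest counts and the lowest nuclear sum, 18 nuclear members were called, and without replicate 2 of the treated KO lungs 11. None was called without replicate 3 of either KO group. It was 1 without replicate 3 of the untreated or replicate 1 of the treated controls, 2 without replicate 3 of the treated controls or replicate 1 of the treated KO lungs, and 3 without replicate 2 of any group except the treated KO. Without the libraries of letters n, o and i, 23 nuclear members were called, all lower. mt-Co1 was called whichever of the 12 libraries was left out. mt-Nd5 was not called without replicate 3 of the untreated controls, replicate 3 of the untreated KO or replicate 1 of the treated KO lungs, where its adjusted p lay above 0.05.

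Markers of other cells moved at day 2 as well. Of 8 red blood cell genes, 5 were called lower, and their sum ranged from 2972 to 5136 CPM in untreated and from 1708 to 3032 CPM in treated libraries. Of 10 neutrophil genes, 6 were called higher, with sums of 104 to 370 CPM untreated and 142 to 578 CPM treated. Of 8 club cell genes, 5 were called lower, and of 12 ciliated cell genes, 6 were called higher and 2 lower. Of 7 tested adipocyte genes, 4 were called higher, with sums of 14.5 to 21.3 CPM untreated and 28.6 to 40.4 CPM treated. In the cardiac list of 12 genes only Actc1 was called, lower, with sums of 348 to 517 CPM untreated and 285 to 455 CPM treated. No listed gene of these types was at 0 throughout. The part of these cells in the results for the members was not tested.

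At day 5, averaged over both genotypes, 7.16% of all genes were called and the members called were 2 nuclear genes, both higher, in a background of 4.34% higher and 2.82% lower. Atp5f1b stood at 203, 195 and 346 CPM in untreated and 408, 401 and 364 CPM in treated controls. In KO lungs Atp5f1b stood at 336, 257 and 318 CPM untreated and at 264, 549 and 417 CPM treated, so that the groups overlapped. Its log2 change was 0.54 ± 0.17 (adjusted p = 0.0453). Ndufv3, a small subunit of the NADH-oxidising arm of complex I, changed by 0.50 ± 0.14 (adjusted p = 0.0241). Of the mitochondrial genes, none passed in edgeR or DESeq2 and 4 had an unadjusted p below 0.05, with mt-Nd5 at 0.58 ± 0.25 and mt-Co1 at 0.52 ± 0.23 (adjusted p = 0.141 each).

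The day 5 count also depended on single libraries. It was 12 nuclear members without replicate 3 of the untreated controls and 12 without replicate 1 of the treated KO lungs. It was 3 without replicate 1 of the untreated KO lungs, and 1 or 0 without any of the other 9. Red blood cell genes were called lower for 3 of 8 (sums of 3878 to 14320 CPM untreated and 4803 to 9294 CPM treated), alveolar type 2 cell genes higher for 6 of 10, and ciliated cell genes higher for 7 of 12. Their part in the result was not tested.

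At day 7, where treated and untreated libraries share the letter, no member was called by edgeR or DESeq2 and none had an unadjusted p below 0.05, against 0.374% of all genes called. The log2 changes ran from −0.25 to 0.24 over all 99 members, with medians of 0.07 for the mitochondrial and −0.03 for the nuclear genes. The differences in the naphthalene effect between days were not called for any member either. The median of day 5 minus day 2 was 0.31 over the nuclear members, with 15 at an unadjusted p below 0.05 and 0.67% of all genes called, and that of day 7 minus day 2 was 0.18, with 8 nuclear members and 1 mitochondrial member and 1.01% of all genes called. DESeq2 called no member in these differences, for which the median over all genes tested is not given. Without the libraries of letters n, o and i, 11 nuclear members were called in the difference of day 5 and day 2, all higher, and without replicate 3 of the untreated controls of day 2 the number was 4.

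Genotype called no member. Over all 6 conditions, 0% of genes passed in edgeR, and the smallest adjusted p of a member was 0.299. DESeq2 called none of the members in this or the other genotype comparisons. At an unadjusted p below 0.05 there were 2 mitochondrial and 17 nuclear members. The median KO minus control value was 0.20 over the mitochondrial members, with 13 of 13 above 0, and −0.11 over the nuclear members, with 16 of 86 above 0. In untreated lungs alone these medians were 0.31 and −0.09, with 5 members at an unadjusted p below 0.05, and in treated lungs 0.05 and −0.12, with 9. The 13 mitochondrial genes share their libraries and long transcripts and are not 13 independent observations. The 86 nuclear genes share the same libraries and are not independent either. For the genotype comparisons, here and below, the median and the share above 0 over all genes tested are not given. The medians and signs therefore cannot be read as particular to the members. The absence of calls also depended on the filter on low counts. Without it, genotype called 2 mitochondrial and 6 nuclear members over all conditions and 2 nuclear members in treated lungs. The share of all genes called without the filter is not given, so these counts cannot be read as particular to the members.

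The genotype difference in the naphthalene effect had a mitochondrial median of −0.26 at day 2, −0.87 at day 5 and 0.48 at day 7, and a nuclear median of −0.26, 0.07 and 0.02, with 0% of all genes called at each day. At day 5 it was below 0 for 13 of 13 mitochondrial genes, and 8 of them had an unadjusted p below 0.05, but the smallest adjusted p was 0.544. Over all members, 0, 11 and 4 had an unadjusted p below 0.05 at days 2, 5 and 7. The untreated and treated libraries of day 5 show the values behind it. In controls mt-Co1 stood at 1567, 2740 and 3167 CPM untreated and 4865, 4855 and 4453 CPM treated, without overlap. In KO lungs mt-Co1 stood at 5058, 2300 and 3443 CPM untreated and 4033, 3497 and 4217 CPM treated, with overlap. Replicate 1 of the untreated controls of day 5, with the lowest mitochondrial sum, also held 2486 CPM of the mitochondrial ribosomal RNA mt-Rnr2, the highest of all libraries.

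Between untreated lungs of days 2 and 7, 45 members were called higher and 1 lower. The background was 13.8% of genes tested, with 6.06% higher and 7.7% lower. Of the 86 nuclear members, 42 were called higher, or 48.8%, and Uqcrc2 was called lower. Cox6c2, among the 42, averaged under 1 CPM in both untreated groups of day 2 and met the level rule through later days, and without it the count was 41 of 85, or 48.2%. The median log2 change was 0.47 over the nuclear members and 0.38 over the mitochondrial members, against 0.00 over all genes. Between days 2 and 5, no member was called by edgeR or DESeq2, 2 had an unadjusted p below 0.05, and 0.476% of all genes were called.

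The 5 smallest p-values among nuclear members belonged to Cox6c, Ndufa1, Ndufc2, Atp5mk and Cox7b. Cox6c, a small subunit of cytochrome c oxidase, stood at 153, 183 and 172 CPM in controls and 117, 178 and 231 CPM in KO lungs at day 2. At day 7 Cox6c stood at 350, 299 and 297 CPM in controls and 221, 293 and 325 CPM in KO lungs. Only replicate 3 of the KO lungs of day 2 overlapped with the libraries of day 7, and the change was 0.79 ± 0.14 (adjusted p = 0.000488). Ndufa1 was between 19.1 and 40.9 CPM at day 2 and between 46.9 and 68.2 CPM at day 7, without overlap, with a change of 0.82 ± 0.15 (adjusted p = 0.000693). Ndufc2 of complex I changed by 0.82 ± 0.16, Atp5mk of complex V by 0.67 ± 0.13 and Cox7b of complex IV by 0.63 ± 0.12.

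**Figure D3:**
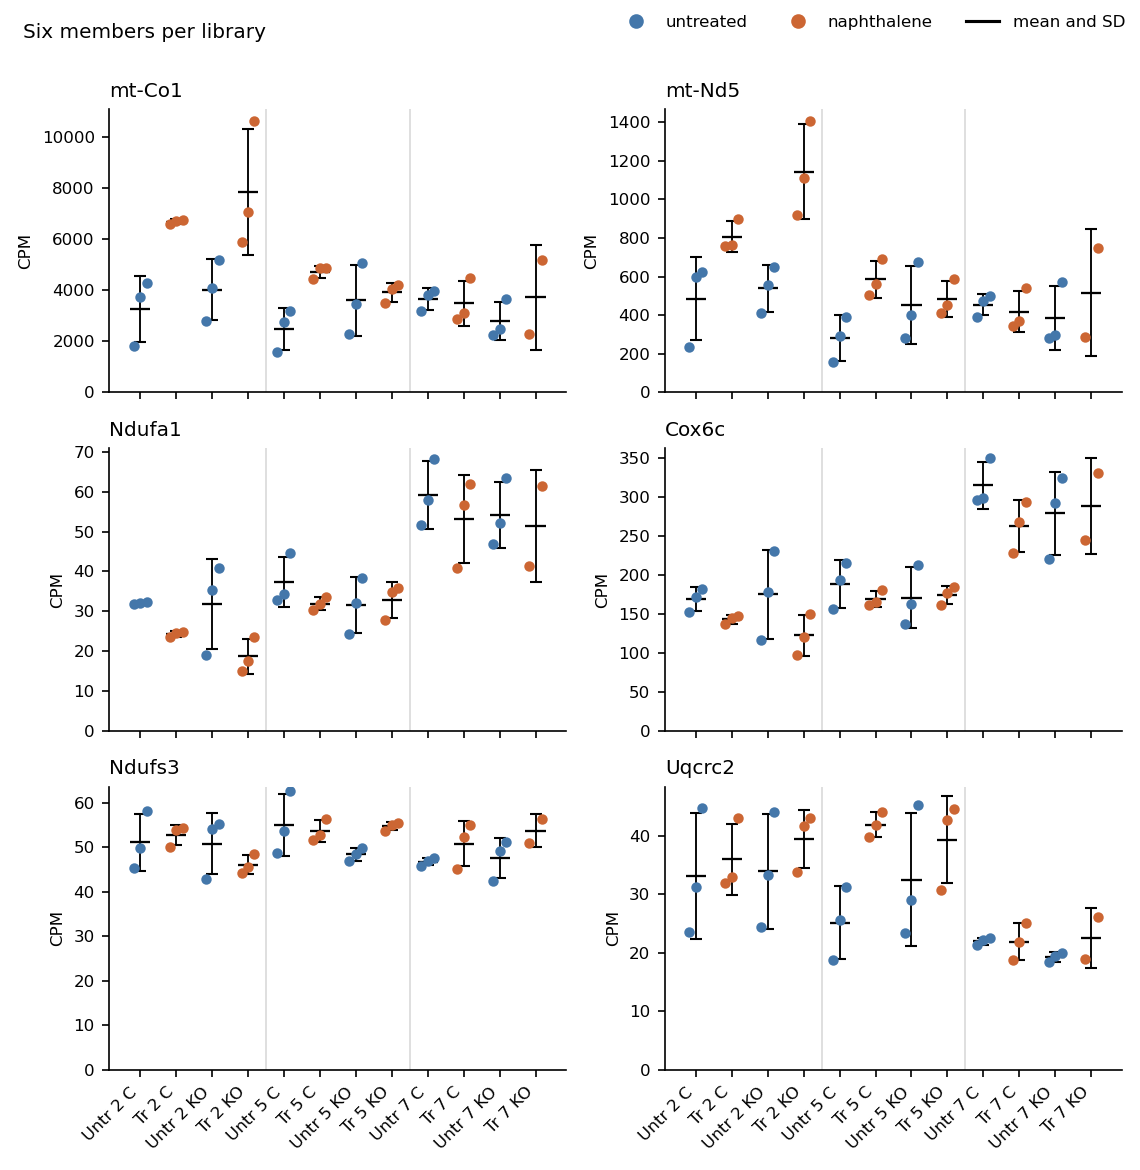
CPM of mt-Co1, mt-Nd5, Ndufa1, Cox6c, Ndufs3 and Uqcrc2 per library in the 12 groups. Points are libraries, bars the mean and SD. mt-Co1 and mt-Nd5 are high in treated lungs of day 2, Ndufa1 and Cox6c in all 4 groups of day 7, and Ndufs3, a core subunit of complex I, lies between 42.5 and 62.5 CPM in every library.

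By role, the counts were as follows, and no difference between roles was tested. Of 30 supernumerary subunits of complex I, 16 were called higher (median 0.53), and of the 7 core subunits none (median −0.06), for example Ndufs3 at −0.11 ± 0.09, Ndufv1 at −0.06 ± 0.09 and Ndufv2 at 0.23 ± 0.11. Ndufa4 and its paralog Ndufa4l2, whose symbols place them in complex I although Ndufa4 is found in complex IV, were both called higher, by 0.72 ± 0.15 and 0.49 ± 0.16. In complex II only Sdhc was called, at 0.60 ± 0.16, beside Sdha at −0.09 ± 0.11, Sdhb at −0.07 ± 0.14 and Sdhd at 0.28 ± 0.10. In complex III, Uqcr10 (0.70 ± 0.17), Uqcrb (0.66 ± 0.16) and the Rieske iron-sulphur protein Uqcrfs1 (0.37 ± 0.11) were higher. The core protein Uqcrc2 was lower by −0.70 ± 0.17 (adjusted p = 0.00545), with 23.5 to 44.8 CPM at day 2 and 18.4 to 22.5 CPM at day 7, without overlap.

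In complex IV, 6 of the 10 widely expressed subunits were called higher, Cox6c first among them. Isoform pairs are given side by side. Cox4i2, the lung isoform of subunit 4, changed by 0.54 ± 0.14 (adjusted p = 0.00737) and Cox4i1 by 0.29 ± 0.15, which did not pass. The muscle isoforms Cox6a2 and Cox7a1 changed by 1.20 ± 0.33 and 0.82 ± 0.23 (adjusted p = 0.0154 and 0.0183), and Cox8b by 0.61 ± 0.23, which did not pass. Their widely expressed partners had changes of 0.61 ± 0.23 (Cox6a1, not called), 0.64 ± 0.14 (Cox7a2, called) and 0.58 ± 0.30 (Cox8a, not called). The difference between isoforms was not tested. Cox6a2 overlapped, with 4.69 to 9.69 CPM at day 2 and 5.61 to 33.3 CPM at day 7. In complex V, all 3 genes of the c ring and 4 of the 5 small membrane subunits were called higher, and of the 5 subunits of the F1 head and central stalk only Atp5f1e was, at 0.72 ± 0.20, while Atp5f1a, Atp5f1b and Atp5f1c lay at −0.01, −0.16 and −0.19. Atp5if1 lay at 0.37 ± 0.17.

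**Figure D4:**
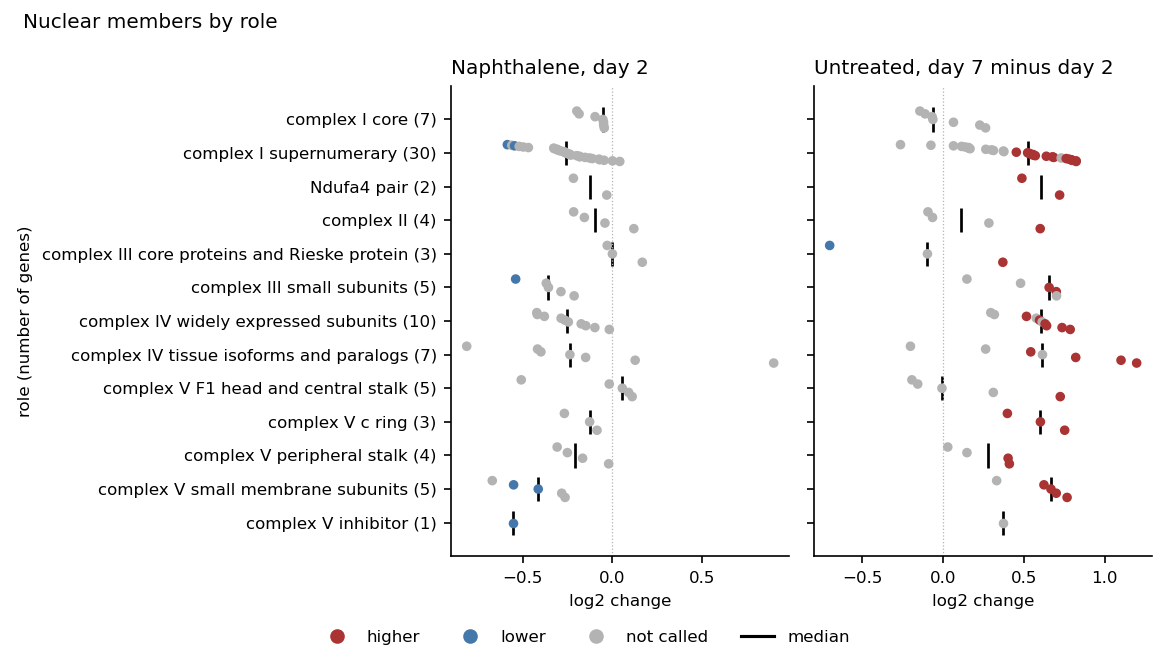
Log2 change of each of the 86 nuclear genes by role, after naphthalene at day 2 (mean of both genotypes) and in untreated lungs between days 2 and 7. Points are genes, bars the median of the role, and colour marks the call. The 7 core subunits of complex I hold no called gene in either panel, and 16 of 30 supernumerary ones are called higher in the right panel; no difference between roles was tested.

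Of the mitochondrial genes, mt-Nd3, mt-Atp6 and mt-Co3 were called higher between days 2 and 7, by 1.03 ± 0.21, 0.98 ± 0.26 and 0.87 ± 0.26 (adjusted p = 0.0012, 0.0113 and 0.022). mt-Nd3 stood at 8.67, 12.2 and 10.5 CPM in controls and 10.6, 15.3 and 24.8 CPM in KO lungs at day 2. At day 7 mt-Nd3 stood at between 21.5 and 36.9 CPM in both genotypes, above every library of day 2 except replicate 3 of the KO lungs. All 3 are among the genes whose counts a nuclear copy can share. Among the genes without an exact copy, mt-Nd1 lay at 0.27 ± 0.13, mt-Cytb at 0.25 ± 0.19 and mt-Nd6 at −0.12 ± 0.20, and none passed. The ribosomal RNAs mt-Rnr1 and mt-Rnr2 were higher by 0.82 ± 0.16 and 0.72 ± 0.22.

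The lungs treated with naphthalene were compared between days 2 and 7 as well, in libraries that share no sample with the untreated comparison. This comparison was added after the data had been seen. It called 4 mitochondrial members higher and 2 lower, and 52 nuclear members higher and 1 lower, against 21.4% of genes tested (11.7% higher, 9.73% lower). Of the 42 nuclear members called higher in untreated lungs, 39 (92.9%) were among these 52, of which they are 75.0%. The same overlap over all genes tested was not counted, so these shares cannot be read as particular to the members. Without Cox6c2 and Ndufb4b, both under 1 CPM in the treated groups of day 2, 50 of 84 were called higher in treated lungs, and 38 of these were among the 41 counted in untreated lungs without Cox6c2. Ndufa1 changed by 1.29 ± 0.16, Atp5mk by 1.06 ± 0.14, Cox6c by 1.06 ± 0.15 and Uqcrc2 by −0.76 ± 0.18. mt-Co1 and mt-Nd5 were lower, by −1.01 ± 0.25 and −1.05 ± 0.28. The letter differs between days in both comparisons.

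Other quantities moved with day 7. Nuclear members are short, with a median longest transcript of 994 bases (85 matched in GENCODE M21) against 2857 bases over 19986 genes tested. Of all tested genes under 1000 bases, 9.56% were called higher between untreated days 2 and 7, with a median change of 0.23, whereas 3.83% of genes of 4000 bases or more were, with a median of −0.06. Of the 43 members under 1000 bases, 30 were called higher, with a median of 0.58. From 1000 to under 2000 bases the call was made for 7 of 25 members and 8.03% of all genes, and from 2000 to under 4000 bases for 4 of 13 members and 5.81%. The part of length in the result was not tested. Naphthalene at day 2 had the opposite order, with medians of −0.22 over all genes and −0.26 over members under 1000 bases, and −0.01 over all genes of 4000 bases or more.

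**Figure D5:**
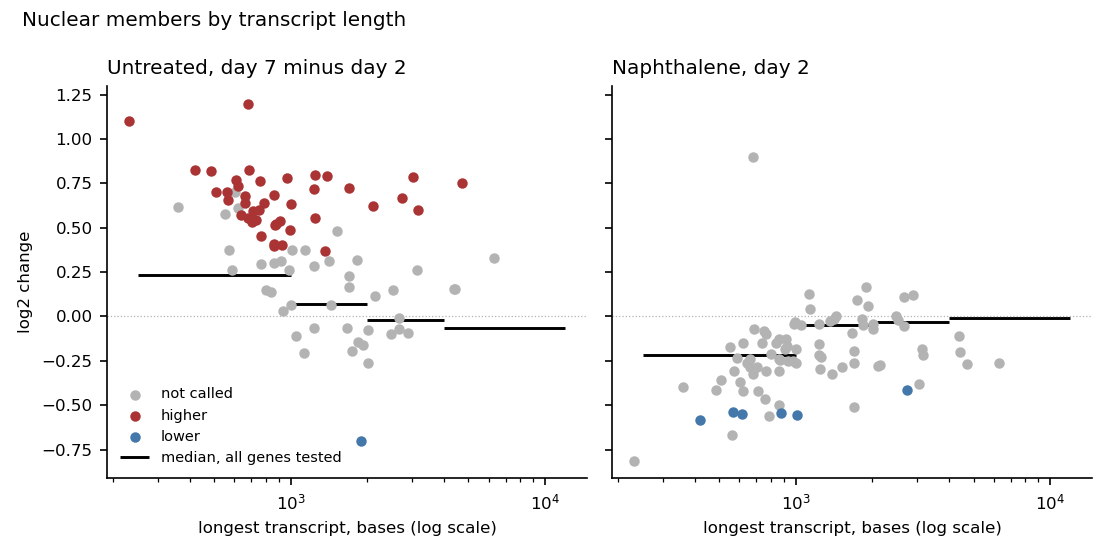
Log2 change of the nuclear members against the length of their longest transcript (log scale), between untreated days 2 and 7 and after naphthalene at day 2. Points are genes coloured by call, and black bars the median of all tested genes in 4 length classes. In the left panel the bars step from 0.23 for genes under 1000 bases to −0.06 for the longest, and in the right panel from −0.22 to −0.01.

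Markers of other cells also differed between the untreated days. Of 8 red blood cell genes, 7 were called higher at day 7, and their sum ranged from 2972 to 5136 CPM at day 2 and from 7311 to 24128 CPM at day 7. Of 7 tested adipocyte genes, 4 were called higher (sums of 14.5 to 21.3 and 20.3 to 63.4 CPM), of 12 cardiac genes 3 (348 to 517 and 361 to 659 CPM), and of 8 club cell genes 6. Counts of Rn18s-rs5, a ribosomal RNA gene, made up 0.95% to 1.76% of the library at day 2 and 1.32% to 8.12% at day 7. The part of these in the result was not tested. The count of nuclear members called was 21 without replicate 3 of the untreated KO lungs of day 7, 26 without replicate 1 of the KO lungs of day 2, 27 without replicate 1 of the controls of day 7 and 28 without replicate 1 of the controls of day 2. It was 26 without the libraries of letters n, o and i, of which 24 were higher, and 23 when only these 4 groups were fitted.

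Other genes of the pathway were counted from lists, to be read against the 6.06% of genes tested called higher and 7.7% called lower between untreated days 2 and 7. Of 20 genes for replication and transcription of mitochondrial DNA, 5 were called lower and none higher (median −0.34), including Polg, the mitochondrial DNA polymerase (−0.83 ± 0.11), and Top3a (−0.82 ± 0.14). Of 22 genes for maturation and decay of mitochondrial RNA, 7 were lower and none higher, such as Tbrg4 (−0.54 ± 0.11) and Ptcd1 (−0.60 ± 0.13). Of 46 assembly factors, 6 were higher, with Coa6 and Coa3, which serve complex IV, at 0.71 ± 0.14 and 0.74 ± 0.16, and 3 lower, with Acad9, which serves complex I, at −0.55 ± 0.12. Mitochondrial ribosomal proteins had 9 higher and 2 lower of 78 (median 0.10), and cytosolic ribosomal proteins 8 higher and 6 lower of 87 (median 0.19), the latter near the background in both directions. Of 17 genes of the tricarboxylic acid cycle, 4 were lower and none higher, with Idh3g at −0.39 ± 0.09. Of 17 genes for other electron carriers, 1 was higher and 2 lower, also near it, and of 19 glycolytic genes 3 were higher and 1 lower. Of 16 regulators, Perm1 (−0.76 ± 0.16) and Nrf1 (−0.27 ± 0.09) were lower, while the coactivator Ppargc1a (−0.10 ± 0.21) and the mitochondrial transcription factor Tfam (−0.03 ± 0.11) did not pass.

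After naphthalene at day 2, the assembly factors Timmdc1 (−0.39 ± 0.11) and Pet100 (−0.60 ± 0.17) were lower, 2 of 46, which is near the 4.3% of all genes called lower. The glycolytic genes Hk2 (0.59 ± 0.14) and Pfkfb3 (0.38 ± 0.11) were among 3 of 19 called higher, beside 5.6% of all genes. Ppargc1a lay at 0.32 ± 0.20 and Tfam at −0.01 ± 0.11, neither called. At day 5, when 4.34% of all genes were called higher, 7 of 19 glycolytic genes were higher, with Aldoc at 0.97 ± 0.23 and Hk2 at 0.59 ± 0.14, as were 2 of 17 genes of the tricarboxylic acid cycle, with Idh3a at 0.32 ± 0.09, and 4 of 46 assembly factors. At day 7 no gene of these lists was called.

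Nuclear respiratory factor 1 (NRF1) and GABPA are transcription factors long linked to respiratory chain genes, and the reference promoters show how often members carry their letters. RefSeq promoters on GRCm38.p6, from 250 bases before to 50 after the start of transcription, matched 55 of the 86 nuclear members. Of the 18 nuclear members of complex V only Atp5pb was matched, so the shares leave out nearly all of the ATP synthase. Both motifs were sought on either strand. The NRF1 letters (GCGCA, any base, then GCGC, a motif that a single site can match on both strands) were in 11 of the 55 (20%) and in 4.78% of 27025 promoters. The letters CCGGAAG of GABPA were in 11 (20%) and 9.12%. Both motifs occur in the promoters of Sdhd and Cox6a1. Among the 24 matched members called higher between untreated days 2 and 7, 4 held the NRF1 letters and 2 those of GABPA. Among the 31 not called, the numbers were 7 and 9. The members that were called and held the NRF1 letters were Ndufb4, Ndufs6, Ndufs5 and Ndufa5. These windows upstream of their start sites show a match in capitals, in Ndufs6 as the reverse complement. Ndufb4 held 3 matches, of which 1 is shown. The windows lie on the minus strand at chr16:37654369-37654425, chr13:73328483-73328533, chr4:123718240-123718319 and chr6:24527672-24527751, and a match is a description of letters, not a binding site.
Ndufb4: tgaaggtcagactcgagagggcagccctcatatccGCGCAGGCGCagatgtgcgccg
Ndufs6: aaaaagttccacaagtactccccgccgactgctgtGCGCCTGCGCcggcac
Ndufs5: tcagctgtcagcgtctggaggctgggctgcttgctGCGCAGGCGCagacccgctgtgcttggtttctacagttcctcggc
Ndufa5: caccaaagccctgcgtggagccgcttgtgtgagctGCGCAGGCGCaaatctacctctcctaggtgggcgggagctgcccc

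Across all libraries, members differed in how much they varied. Ndufs3 had the narrowest range, from 42.5 to 62.5 CPM, and is a core subunit of complex I. Wide ranges were found in mt-Co1 (1567 to 10639 CPM), mt-Nd5 (156 to 1405 CPM) and Cox6a2 (3.02 to 33.3 CPM), and in weakly counted genes such as Ndufb4b, with 1 to 35 counts a library. In the comparisons listed, 35 members were never called, 28 of them nuclear. Of the 6 nuclear members lower after naphthalene at day 2, 5 (83.3%) were among the 42 higher between untreated days 2 and 7 (11.9%). The overlap over all genes was not counted. Both comparisons use the untreated lungs of day 2, so their values stand side by side only.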

How the data were processed

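Counts per gene for 35 whole-lung libraries were used as deposited by the authors; the submitters' processing notes name the build GRCm39 and DESeq2 without their roles. RNA was made by Trizol extraction and a Watchmaker mRNA kit, per the labels' protocols. No aligner, counter or annotation is named in the labels or file header. In R 4.3.3, edgeR 4.0.16 kept 20606 genes with filterByExpr, scaled libraries by TMM, and fitted 12 group means with robust quasi-likelihood (23 residual degrees of freedom). CPM (the library-scaled count) in the text use the TMM factors, except the limit of 1 CPM, which used plain library totals. Adjusted p are Benjamini-Hochberg values over all genes of a comparison, two-sided, with a threshold of 0.05. Values after ± are standard errors for log2 changes and SD for levels.

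Members, lists and roles were chosen with earlier results of these data known. Named genes are the mitochondrial members, isoform pairs, Atp5if1, complex II, the called nuclear members with the smallest p (up to 5 per direction), the most abundant member of each complex, and up to 2 called genes per list and direction. Other named members, such as the complex I core, further called subunits, the nuclear copies and the members with promoter motifs, were chosen after their values were seen. Nuclear copies were sought with blastn 2.17.0 (at least 90% identity over 100 bases). The tests were checked on simulated data, for naphthalene at day 2 over both genotypes. Of 100 genes with a true log2 change of 0.5, 19% were called, and of 100 with a change of 1, 78%. Of 102 calls, 5 were false. A gene not called can therefore still have a change of this size. DESeq2 1.42.0, other scaling, no filter, a replicate block and left-out libraries were alternatives.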

Additional observations from a re-analysis of the deposited data

How the results depend on the processing

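No called member changed direction under the alternatives run, while the ratio differences after naphthalene in KO lungs of day 5 and in both genotypes at day 7 changed sign with left-out libraries. Counts that moved by over 1.5 times are given by setting. The share of all genes called under each setting is not given, so these counts cannot be read as particular to the members. Without a filter on low counts, naphthalene called 2 mitochondrial and 1 nuclear members at day 2 in controls, 2 and 7 in KO lungs, and 4 and 11 over both genotypes. At day 5 it called 7 and 7 in controls, 2 mitochondrial in KO lungs, and 3 and 10 over both. Genotype then called 2 and 6 over all conditions and 2 nuclear in treated lungs, its difference in the naphthalene effect 3 mitochondrial at day 5 and 1 at day 7, untreated lungs 1 mitochondrial between days 2 and 5 and 5 between days 2 and 7, and the difference in effect between days 3 nuclear for day 5 and 2 mitochondrial and 1 nuclear for day 7. DESeq2 called 1 mitochondrial member at day 2 in controls, 1 and 2 nuclear in KO lungs, 4 and 2 at day 5 in controls, 10 nuclear at day 2 and 6 at day 5 over both genotypes, and 5 mitochondrial between untreated days 2 and 7. DESeq2 size factors called 4 nuclear members at day 5. Without letters n, o and i, chosen after seeing the data, the counts were 2 mitochondrial and 26 nuclear at day 2 in KO lungs, 23 nuclear at day 2 and 0 at day 5 over both genotypes, 26 nuclear between untreated days 2 and 7, and 11 nuclear in the difference of effect between days 5 and 2. With only the groups compared in the fit, they were 1 nuclear at day 2 in controls, 1 mitochondrial in KO lungs, 1 nuclear at day 5 and 23 nuclear between untreated days 2 and 7. The ratio difference at day 2 in controls was 0.425 by the mean log2 CPM over members. The causes were not tested.

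Leaving out 1 library at a time, nuclear members called ranged from 0 to 20 at day 2 in KO lungs, 0 to 12 at day 5 in controls (mitochondrial 0 to 5), 0 to 18 at day 2 (mitochondrial 1 to 3) and 0 to 12 at day 5 (mitochondrial 0 to 3) over both genotypes, 21 to 46 between untreated days 2 and 7, and 0 to 4 in the difference of effect between days 5 and 2. The ratio difference ranged from 0.595 to 0.935 and 0.508 to 0.986 at day 2 in control and KO lungs.

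Same-numbered replicates did not deviate together, with correlations from −0.305 to 0.156. With the replicate block, 1 nuclear member was called at day 5 over both genotypes, and no other count moved by over 1.5 times. All 8 members called at day 2 kept their call under the block, and 42 of 46 between untreated days 2 and 7. Depth limits the weakest genes, such as Ndufb4b with 1 to 35 counts a library.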
